A study of Mus musculus with 40 samples.

Results

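The genes described here are 8 receptor genes through which neurotrophic factors act on motor neurons, Ret, Gfra1, Gfra2, Ntrk2, Ntrk3, Ngfr, Cntfr and Lifr, together with the ligand gene Bdnf. They were chosen by symbol, as the rows of the count table whose Ensembl identifier maps to these symbols, and are 9 of the 55487 genes in the table. Their counts were read in all 40 libraries of the series.

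Neurotrophic factors are secreted proteins that sustain developing motor neurons and reach the cell through receptors with separate parts. GDNF binds the lipid-anchored co-receptor GFRα1, and the complex activates the receptor tyrosine kinase RET. BDNF activates TrkB, with p75NTR as a shared low-affinity receptor of all neurotrophins, and CNTF binds CNTFRα, which recruits LIFR and gp130 to signal through JAK kinases and STAT3.

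The study differentiated mouse embryonic stem cells of a single line, carrying eGFP under the Hb9 (Mnx1) promoter, into ES-motor neurons with retinoic acid and smoothened agonist, the embryoid bodies also receiving GDNF before they were taken apart. Glial progenitors of the same differentiation were expanded with FGF and EGF, matured into ES-astrocytes with forskolin, and exposed for 24 h to a stimulus or left as control. Sorted eGFP-positive ES-motor neurons were then seeded on these ES-astrocytes, and after co-culture the cell types were sorted apart at about 200 cells a library for poly(A) RNA sequencing of full-length cDNA. The stimuli were IL-1α with TNF-α (il1a+tnfa), complement C1Q with C5 (c1q+c5), IL-1β with IL-6 (il1b+il6), and TGF-β2 (tgfb2).

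The 40 libraries form 10 groups, 2 cell types by 5 treatments, each with 4 biological replicates lettered A to D. The study counts a separate vial of stem cells as a biological replicate, and all groups come from the same line. Whether a letter names the same vial in every group is not stated, and the main tests take the 40 libraries as independent. Control and il1a+tnfa libraries carry plate index 1 in the sample sheet and the other stimuli plate index 2. A difference of c1q+c5, il1b+il6 or tgfb2 from control therefore cannot be told apart from a difference between plate indexes. ES-astrocytes and ES-motor neurons also carry different index primers, so index primer and cell type cannot be told apart, and in bulk libraries fewer cells of a type and less RNA per cell cannot be told apart either.

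Depth differed between the cell types. Total counts of the 20 ES-astrocyte libraries ran from 1510823 to 16054290 with a median of 4670241.5. Those of the 20 ES-motor neuron libraries ran from 6557 to 19717324 with a median of 1213482. By group, the ES-motor neuron totals ran from 240859 to 19717324 in control, 112775 to 445874 in il1a+tnfa, 6557 to 3285492 in c1q+c5, 80315 to 14329617 in il1b+il6 and 283205 to 12606121 in tgfb2. The ES-astrocyte totals ran from 2848750 to 13384392 in control, 2019196 to 14831839 in il1a+tnfa, 1510823 to 10158932 in c1q+c5, 2141079 to 16054290 in il1b+il6 and 2787407 to 10099902 in tgfb2. The median total over the 40 libraries was 2459460.5, and 9 libraries, all of ES-motor neurons, held less than 20% of it. They were control C, the 4 of il1a+tnfa, c1q+c5 A, il1b+il6 B and D, and tgfb2 A, and they are called shallow in what follows.

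Levels are given as CPM (counts per 1000000 scaled reads), the count as a share of the library total scaled with the trimmed mean of M-values (TMM). A count of 0 allows up to 3 counts, which equals between 0.230 and 2.04 CPM in ES-astrocyte libraries and between 0.154 and 202.7 CPM in ES-motor neuron libraries. These limits cover counting error only, because the reads were amplified and no molecular identifiers are described. Where libraries are said to lie above others the measured levels are meant. Several values of the shallow libraries rest on 1 count, which in ES-motor neuron c1q+c5 A equals 67.6 CPM.

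The cell types were compared over all treatments, 20 libraries against 20, with the quasi-likelihood test of edgeR and treatment as a term. Genes with too few counts for the test were first removed by its low-count filter. A gene was called when its Benjamini-Hochberg adjusted p over all genes tested was at most 0.05 and its absolute log2 fold change, ES-motor neuron minus ES-astrocyte, was above 1.

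The cell type labels were checked against marker genes in that comparison. The sum of 8 motor neuron markers ran from 650 to 4749 CPM in ES-motor neurons, above the 15.7 to 109 CPM of all ES-astrocyte libraries, and its most abundant gene in ES-motor neurons was Mnx1, the gene whose promoter drives the sorted eGFP. All 8 passed the low-count filter and 7 were called higher in ES-motor neurons, with a median log2 fold change of 5.00. The largest were Mnx1 (8.70), Slc5a7 (7.92), Chat (6.07), Isl2 (5.03), Slc18a3 (4.97) and Isl1 (3.30).

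The sum of 13 astrocyte markers ran from 637 over a median of 1970 to 3582 CPM in ES-astrocytes, led by Fabp7, and from 0 over 459 to 1264 CPM in ES-motor neurons, led by Sox9, so the ranges overlapped. The lowest ES-astrocyte library was control A, with 1 count of Gja1 (0.107 CPM), 199 counts of Mnx1 (21.3 CPM) and the highest sum of motor neuron markers of its cell type. ES-astrocyte c1q+c5 D was like it, with 0 counts of Gja1 and 128 counts of Mnx1 (19.8 CPM). Its motor neuron markers summed to 107.7 CPM and its astrocyte markers to 889.7 CPM. The highest ES-astrocyte levels of Ntrk3 (35.4 CPM) and Lifr (67.9 CPM) were in c1q+c5 D. Of the 8 kept, 6 were called lower in ES-motor neurons, with log2 fold changes of -8.17 for Gja1, -6.80 for Slc1a3, -6.08 for Cd44, -5.79 for Fabp7, -5.07 for Fgfr3 and -2.90 for Slc1a2. Sox9, named after its values were seen, was called higher at 1.75, and the median of the kept markers was -5.43. Gfap, Aqp4 and Aldh1l1 had a count of 0 in all 20 ES-astrocyte libraries, which allows up to 0.0257 CPM over them. RNA of these defining markers of mature astrocytes was thus not detected in the cells labelled as astrocytes. By immunocytochemistry the paper reports GFAP and AQP4 protein in its ES-astrocytes.

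Markers of other cells were counted in the ES-astrocyte libraries as well. The sum of 8 neuron markers ran from 1722 to 3753 CPM there, beside 3446 to 11563 CPM in ES-motor neurons, with Stmn2 the most abundant in both; 4 of 8 were called higher in ES-motor neurons, Nefl (3.71), Nefm (3.43), Stmn2 (1.71) and Map2 (1.08), with a median of 0.97. The 4 cycling markers summed to 401 to 1091 CPM in ES-astrocytes but to no more than 18.3 CPM in ES-motor neurons, and all 4, Mki67 (-8.30), Ccnb1 (-7.42), Cdk1 (-7.55) and Top2a (-6.94), were called lower with a median of -7.49. The interneuron markers Gata3 (-9.49), En1 (-4.50) and Sox14 (-3.98) were called lower, and Gata3 had a median of 127 CPM in ES-astrocytes against 0 in ES-motor neurons. The 5 mesenchyme markers summed to between 37.0 and 1103 CPM in ES-astrocytes, led by Dcn, and 3 of 3 kept were called lower. Dcn was at -9.49 and Col1a1 at -8.06. Col1a2, with 1728 ES-astrocyte counts and no ES-motor neuron count, was at least 319-fold lower over the pooled counts. Its ES-astrocyte levels ran from 0 over a median of 1.68 to 96.8 CPM, so this bound leans on its highest libraries. The median of the 3 was -8.32 taking that bound for Col1a2. Of 4 sensory neuron markers 3 were kept, with Pou4f1 (-4.37) called lower, Isl1 called higher and a median of -1.89.

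Of 7 oligodendrocyte lineage markers 3 were kept and 0 called by edgeR, with 0 at an unadjusted p under 0.05 and a median of 0.59, and of 5 microglia markers only Csf1r was kept, at 1.53 and not called. None of the 5 neural crest and Schwann markers or the 4 pluripotent markers passed the filter. The part of these other cells in the levels of the 9 genes in ES-astrocyte libraries was not tested.

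The first question is which of the 9 genes differ between ES-motor neurons and ES-astrocytes over all treatments. Of 13227 genes that passed the low-count filter, 1972 were called, which is 14.9%. Of the 9 genes 8 passed, all but Gfra2, and 2 of these were called, Ret higher and Ntrk2 lower in ES-motor neurons. Over all genes tested 511 were called higher (3.86%) and 1461 lower (11%), and the median log2 fold change was -0.21. The balance was the other way in limma-voom with quality weights, which called 3108 genes, 2220 of them higher, at a median of 0.38.

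Ret encodes the receptor tyrosine kinase that carries the signal of GDNF and its relatives into the cell (ENSMUSG00000030110, GRCm38 chromosome 6, 118151745 to 118197718, minus strand). In the 20 ES-motor neuron libraries its lowest, median and highest levels were 0, 18.8 and 124 CPM, from 1743 counts. In the 20 ES-astrocyte libraries they were 0, 0.0536 and 11.1 CPM, from 343 counts. Ret was counted in 19 of 20 ES-motor neuron libraries and in 10 of 20 ES-astrocyte libraries, and 15 ES-motor neuron libraries lay above the highest ES-astrocyte library, so the groups overlapped in the remaining 5. Of the 15, the shallow il1b+il6 B and tgfb2 A held 1 and 3 Ret counts. The difference was called, at a log2 fold change of 3.97 with a standard error (SE) of 0.778, and the adjusted p of edgeR was 0.000107.

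By treatment, Ret in ES-motor neurons A to D was 0.906, 15.4, 42.3 and 22.9 CPM in control. It was 35.5, 58.3, 53.7 and 8.67 CPM in il1a+tnfa, where the library of lowest level held 1 count. Its mean was higher in ES-motor neurons than in ES-astrocytes under all 5 treatments, and the cell types did not overlap under 2 of them, il1a+tnfa and il1b+il6. In il1b+il6 this was 11.3 against 11.1 CPM and rested on the 1 count of the shallow B, so a separation there is not shown. Of the 13227 genes tested 8.94%, 8.17%, 7.32%, 6.91% and 9.32% did not overlap in control, il1a+tnfa, c1q+c5, il1b+il6 and tgfb2, which is 8.13% over the treatments, and chance gives 2.86% for 4 against 4. In c1q+c5 the ES-motor neuron levels were 0, 16.7, 18.5 and 26.1 CPM, the 0 being the library of 6557 counts. In il1b+il6 they were 22.2, 11.3, 124 and 26.8 CPM, and in tgfb2 12.4, 19.2, 3.51 and 8.58 CPM. The library at 124 CPM, il1b+il6 C, was not shallow and held 622 Ret counts.

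Ret counts in ES-astrocytes were spread unevenly over the treatments. All 4 il1a+tnfa libraries were at 0, and the control libraries A to D were at 0.107, 0, 0 and 1.71 CPM. The c1q+c5 libraries were at 0, 3.59, 0 and 7.73 CPM, the il1b+il6 libraries at 5.00, 7.48, 11.1 and 0 CPM, and the tgfb2 libraries at 0.615, 0, 0.723 and 7.96 CPM. The higher ES-astrocyte levels were thus in libraries of plate index 2. More than 3 Ret counts were found in 7 ES-astrocyte libraries, and Mnx1 in these ran from 0 to 19.8 CPM, against 320 to 4015 CPM in ES-motor neurons. In il1b+il6 A, B and C, the 3 with Ret in that group, Mnx1 was at 0.227, 0 and 0 CPM. The 19.8 CPM was in c1q+c5 D, with Ret at 7.73 CPM.

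Within plate index 1 alone the Ret log2 fold change between the cell types was 7.06 (SE 1.27, adjusted p of edgeR 0.000779), and within plate index 2 alone it was 2.65 (SE 0.787, adjusted p of edgeR 0.0226). These 2 fits were chosen after seeing the data. The treatments differ between the plate indexes, so the sizes within each cannot be assigned to plate or treatment. Without the 9 shallow libraries the log2 fold change was 3.41 (adjusted p of edgeR 0.00800), without ES-astrocyte tgfb2 D it was 4.61, and in limma-voom with quality weights it was 5.27. The adjusted p over all alternatives ran from 7.41e-09 to 0.0226.

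Gfra1 encodes GFRα1, the co-receptor that presents GDNF to RET (ENSMUSG00000025089, chromosome 19, 58235604 to 58455909, minus strand). It was counted in all 40 libraries, and its levels ran from 11.3 over a median of 47.7 to 116.5 CPM in ES-motor neurons, beside 0.634 over 48.3 to 112 CPM in ES-astrocytes. The ranges overlapped almost wholly, with 1 ES-motor neuron library above the highest ES-astrocyte library. Gfra1 differed by a log2 fold change of 0.14 (SE 0.313, adjusted p of edgeR 0.847), which was 0.85 within plate index 1 alone and turned negative within plate index 2 alone, at -0.21. The last stretch of the gene overlaps the antisense gene Gm16277 on the plus strand, which had 2825 counts, 1884 of them in ES-astrocytes. Whether the counting kept the strands apart is not given in the sources used here, so reads of the overlap cannot be told apart.

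Gfra2 encodes the co-receptor preferred by neurturin (ENSMUSG00000022103, chromosome 14, 70890120 to 70979838, plus strand). It had 2 counts in all, both in ES-motor neuron control A, and was at 0 in the other libraries. It passed the low-count filter in no comparison, and no fold is given because both cell types were at or below the limit of 3 counts.

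Bdnf encodes the brain-derived neurotrophic factor, the ligand of TrkB (ENSMUSG00000048482, chromosome 2, 109674700 to 109727007, plus strand). It was counted in 18 of 20 ES-astrocyte libraries, with a median of 6.31 and a highest level of 17.4 CPM, and in 7 of 20 ES-motor neuron libraries, with a median of 0 and a highest level of 13.8 CPM. Only 2 ES-astrocyte libraries lay above the highest ES-motor neuron library, and the cell types did not overlap under 1 treatment, tgfb2, where 9.32% of the genes tested did not. The 0 of the shallow ES-motor neuron tgfb2 A allows up to 12.4 CPM, above the 11.1 CPM of ES-astrocyte tgfb2 A, so that separation is not shown either. Bdnf was not called, at a log2 fold change of -1.11 (SE 0.888, adjusted p of edgeR 0.468). Of 378 ES-motor neuron counts of Bdnf, 269 came from control B, the deepest library. Without that library the log2 fold change was -2.01. Within plate index 1 alone it was 0.25, of the other sign, and within plate index 2 alone -1.98, and the adjusted p over all alternatives ran from 0.120 to 0.966. A permutation test (two-sided) on mean CPM, with cell types shuffled within each treatment, gave an unadjusted p of 0.00665 for Bdnf, 0.00084 for Ntrk2 and, the smallest that 100000 shuffles can give, 1e-05 for Ret, and above 0.05 for the other 6 genes.

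Ntrk2 encodes the BDNF receptor TrkB (ENSMUSG00000055254, chromosome 13, 58806569 to 59133970, plus strand). In ES-astrocytes its lowest, median and highest levels were 0, 2.64 and 57.0 CPM, from 886 counts. In ES-motor neurons they were 0, 0 and 5.43 CPM, from 29 counts. Ntrk2 was counted in 13 of 20 ES-astrocyte libraries and 4 of 20 ES-motor neuron libraries, and 8 ES-astrocyte libraries, at 5.87 to 57.0 CPM, lay above the level of every ES-motor neuron library. Of the 16 ES-motor neuron libraries at 0, 8 were shallow and allow up to 6.48 to 202.7 CPM, so of the 16 only the other 8, which allow up to 0.154 to 3.08 CPM, are shown to lie below them. This difference was called, at a log2 fold change of -3.46 with an SE of 1.11, and the adjusted p of edgeR was 0.0200. Ntrk2 passed the low-count filter through its ES-astrocyte libraries, with 16 of 20 ES-motor neuron libraries at 0.

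The ES-astrocyte levels of Ntrk2 in control A to D were 6.11, 18.5, 57.0 and 0 CPM. They were 10.9, 0.662, 1.84 and 0 CPM in il1a+tnfa and 0, 13.7, 17.03 and 5.87 CPM in c1q+c5. In tgfb2 they were 3.89, 0.487, 20.6 and 0 CPM, and in il1b+il6 only B was above 0, at 3.43 CPM. Every ES-astrocyte treatment thus held at least 1 library at 0, although none of these libraries was shallow. In ES-motor neurons the counts were 6 in control A, 1 in control C, 20 in il1b+il6 A and 2 in tgfb2 D. The mean was lower in ES-motor neurons under all 5 treatments, and under each the cell types overlapped at 0.

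The call of Ntrk2 depended on the model and on single libraries. The log2 fold change was -2.45 with an adjusted p of 0.113 in DESeq2, and -0.27 with an adjusted p of 0.837 in limma-voom with quality weights. In edgeR it was -3.27 (adjusted p 0.145) without the shallow libraries, -3.57 (adjusted p 0.259) within plate index 1 and -3.34 (adjusted p 0.195) within plate index 2. Without ES-astrocyte il1b+il6 B it was -3.41 (adjusted p of edgeR 0.0524), and without ES-astrocyte tgfb2 C -2.98 (adjusted p of edgeR 0.0526). It was -4.44 (adjusted p of edgeR 0.00368) without ES-motor neuron il1b+il6 A, which held 20 of the 29 counts of its cell type. Over all alternatives run the adjusted p ranged from 0.00368 to 0.837 and the sign was the same. The counts do not separate the full-length from the truncated receptors made by Ntrk2 or by Ntrk3.

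Ntrk3 encodes TrkC, the receptor of neurotrophin-3 (ENSMUSG00000059146, chromosome 7, 78175959 to 78738012, minus strand). Its levels had a median of 6.54 and a highest value of 25.6 CPM in ES-motor neurons, against a median of 3.81 and a highest value of 35.4 CPM in ES-astrocytes. It was counted in 17 and 15 of 20 libraries respectively, and its mean was higher in ES-motor neurons under all 5 treatments with overlap under each. Ntrk3 was not called, at a log2 fold change of 0.86 (SE 0.668, adjusted p of edgeR 0.451), and limma-voom with quality weights called it at 1.93 (adjusted p 0.0102, in a range of 0.0102 to 0.769 over the alternatives).

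Ngfr encodes p75NTR, which binds all neurotrophins (ENSMUSG00000000120, chromosome 11, 95568818 to 95587735, minus strand). It was counted in 18 ES-motor neuron libraries, with a median of 28.1 and a highest level of 100.7 CPM, and in 19 ES-astrocyte libraries, with a median of 14.5 and a highest level of 71.1 CPM. The highest ES-motor neuron value came from 17 counts of the shallow il1a+tnfa A, and no other ES-motor neuron library lay above the ES-astrocyte range. Ngfr was not called either, at a log2 fold change of 0.50 (SE 0.488, adjusted p of edgeR 0.575).

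Cntfr encodes the CNTF-binding chain CNTFRα (ENSMUSG00000028444, chromosome 4, 41657498 to 41697089, minus strand). In ES-motor neurons its median and highest levels were 3.79 and 86.3 CPM. In ES-astrocytes they were 4.05 and 97.1 CPM. A few libraries held most of its counts, with 1358 of 1668 ES-motor neuron counts in il1b+il6 A and 906 of 1324 ES-astrocyte counts in control A. The log2 fold change was 0.41 (SE 0.928, adjusted p of edgeR 0.843), and it was -0.33 without ES-motor neuron il1b+il6 A, -0.20 without ES-motor neuron il1a+tnfa A and 1.40 without ES-astrocyte control A.

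Lifr encodes the signalling chain shared by LIF and CNTF (ENSMUSG00000054263, chromosome 15, 7090614 to 7197489, plus strand). It was counted in 12 ES-motor neuron libraries, with a median of 6.73 and a highest level of 29.5 CPM, and in 18 ES-astrocyte libraries, with a median of 12.8 and a highest level of 67.9 CPM. The ranges overlapped. The log2 fold change was -0.94 (SE 0.743, adjusted p of edgeR 0.462). It was -2.21 within plate index 1 alone, -0.14 within plate index 2 alone and -0.16 in limma-voom with quality weights, and the adjusted p over all alternatives ran from 0.297 to 0.969.

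**Figure D1:**
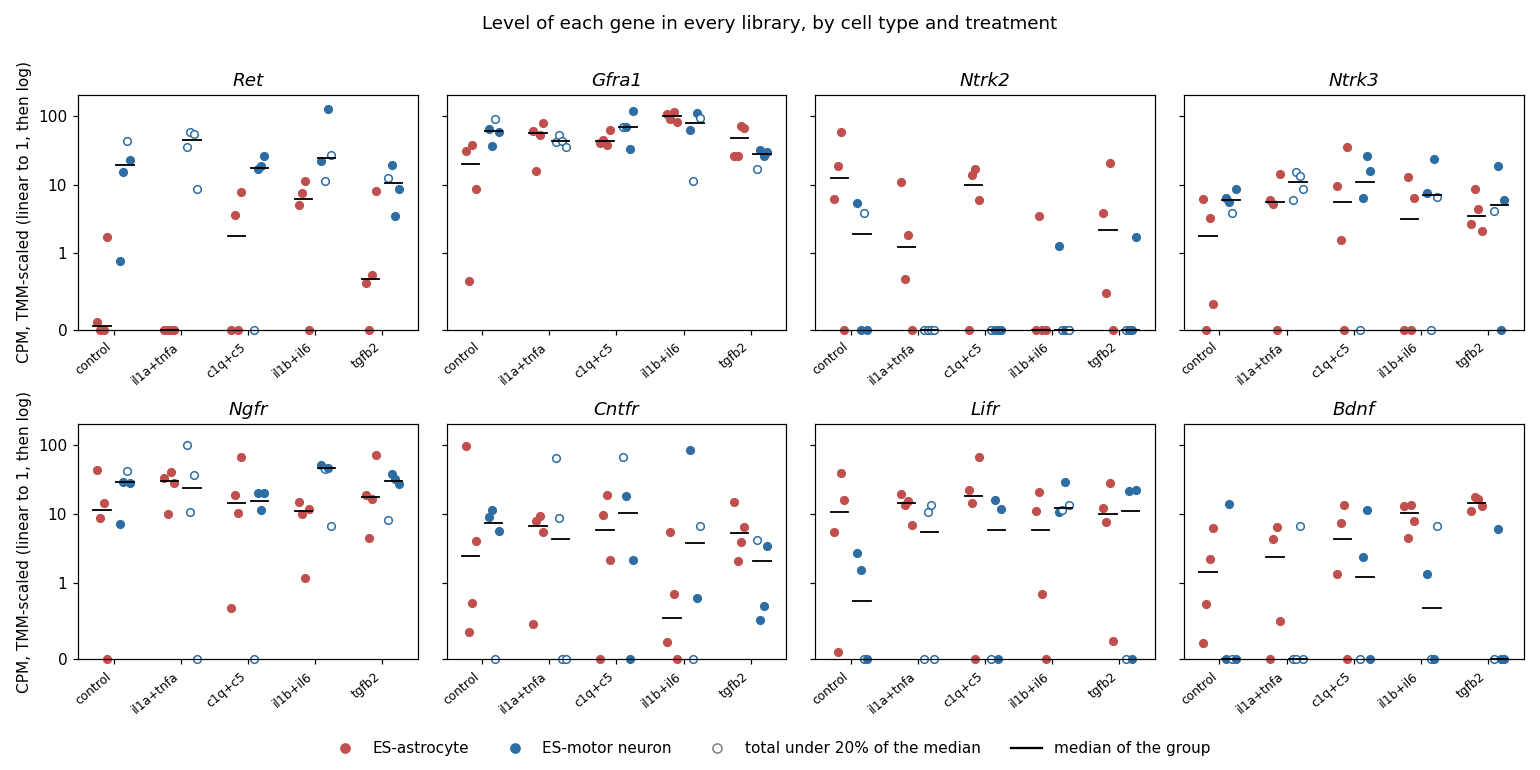
CPM (vertical axis, linear to 1 and logarithmic above) of 8 of the genes in each library, by treatment, with ES-astrocytes in red and ES-motor neurons in blue; open points are shallow libraries and bars are group medians. Ret in ES-motor neurons lay above the highest ES-astrocyte level of 11.1 CPM in 15 of 20 libraries, and Ntrk2 was at 0 in 16 of 20 ES-motor neuron libraries. Gfra2, with 2 counts in all, is not drawn.

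Levels of different genes were compared per kilobase of exon. In ES-motor neurons the order of the medians was Gfra1 with 8.71 CPM per kb, Ngfr with 8.14, Ret with 2.79, Cntfr with 1.36, Lifr with 0.624 and Ntrk3 with 0.217, while Ntrk2, Bdnf and Gfra2 had a median of 0. In ES-astrocytes it was Gfra1 with 8.82 CPM per kb, Ngfr with 4.21, Cntfr with 1.45, Lifr with 1.19, Bdnf with 1.02, Ntrk2 with 0.137, Ntrk3 with 0.126, Ret with 0.00792 and Gfra2 with 0. Neighbours in either order had overlapping ranges over the 20 libraries, so single steps in the order did not exceed the spread. Gfra1 and Ngfr stood at the top in both cell types, and Ret came next in ES-motor neurons and was the last but Gfra2 in ES-astrocytes.

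The parts of each receptor were also counted together, a library holding a gene when it had at least 1 count. Ret and Gfra1 were both present in 19 of 20 ES-motor neuron libraries and in 10 of 20 ES-astrocyte libraries. Ngfr with Ntrk2 or Ntrk3 was present in 16 and 17 of 20 respectively. Cntfr, Lifr and the gp130 gene Il6st were all present in 9 ES-motor neuron and 17 ES-astrocyte libraries, and Lifr with Il6st in 11 and 18. Bdnf and Ntrk2, ligand and receptor, were both present in 11 ES-astrocyte libraries and 1 ES-motor neuron library. The ES-astrocyte libraries were the deeper ones, and presence rises with depth, so these numbers are not compared between the cell types.

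The next comparison asks the same question in the 8 control libraries alone, 4 against 4. Of 10199 genes tested 228 were called, or 2.24%. Of the 9 genes 6 passed the filter, and 0 were called by edgeR, by DESeq2 or by limma-voom; 0 of the 6 had an unadjusted p under 0.05. The largest differences were -3.64 for Lifr (SE 1.77, adjusted p of edgeR 0.522) and -3.34 for Ntrk2 (SE 2.12, adjusted p of edgeR 0.683). Lifr in control A to D was at 2.72, 1.53, 0 and 0 CPM in ES-motor neurons, beside 5.47, 0.0905, 39.8 and 15.8 CPM in ES-astrocytes, with overlap through ES-astrocyte B. The Lifr value was -2.60 without ES-astrocyte C, -4.25 without ES-motor neuron A and -0.86 in limma-voom with quality weights.

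Gfra1 in control was at 63.4, 36.9, 88.5 and 58.3 CPM in ES-motor neurons, beside 31.0, 0.634, 38.0 and 8.74 CPM in ES-astrocytes. The groups overlapped in 1 library of each, and the log2 fold change was 1.69 (SE 0.933, adjusted p of edgeR 0.598), against 3.29 in limma-voom with quality weights (adjusted p 0.0920, in a range of 0.0920 to 0.898 over the alternatives). Ntrk3 was at a log2 fold change of 1.36 (SE 1.49), Ngfr at 0.71 (SE 1.27) and Cntfr at -1.89 (SE 1.58), with adjusted p of edgeR of 0.867, 0.930 and 0.801. The Cntfr value rested on ES-astrocyte control A, and the median level of Cntfr was higher in ES-motor neurons, at 7.39 CPM beside 2.42 CPM. Ret, Bdnf and Gfra2 were below the filter in this comparison. For Ret a two-sided exact permutation test of the difference in mean CPM gave a p of 0.0571, where 4 against 4 can reach 0.0286. For Bdnf the same exact test gave a p of 1.

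**Figure D2:**
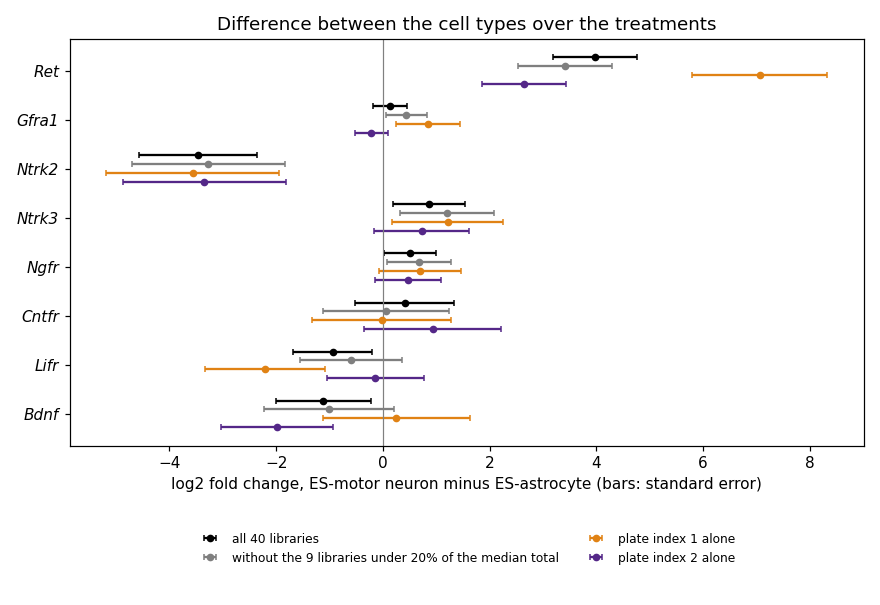
Log2 fold change (horizontal axis, ES-motor neuron minus ES-astrocyte) with its standard error for the 8 genes kept, from all 40 libraries, without the 9 shallow libraries, and within each plate index. Ret lay between 2.65 and 7.06 and Ntrk2 between -3.57 and -3.27, while Gfra1, Cntfr and Bdnf fell on both sides of 0.

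Each stimulus was then compared with control within each cell type, 4 libraries against 4, to ask whether the receptors change in stimulated ES-astrocytes or in ES-motor neurons seeded on them. The 4 comparisons of a cell type share its 4 control libraries. In ES-motor neurons 3, 4, 6 and 3 of the 9 genes passed the filter for il1a+tnfa, c1q+c5, il1b+il6 and tgfb2, and in ES-astrocytes 6, 7, 6 and 7 did. Of these 42 tests 0 were called by edgeR, DESeq2 or limma-voom, 3 had an unadjusted p under 0.05, and the lowest adjusted p of edgeR was 0.990. The background was as low, with 0% of genes called in 7 of the 8 comparisons and 0.0126% in ES-motor neurons with tgfb2, where the 1 gene was Hoxa5 (log2 fold change 3.05, adjusted p of edgeR 0.0103).

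Across all genes the tests with an unadjusted p under 0.05 numbered 143 of 4479, 322 of 7348, 98 of 8327 and 221 of 7947 in ES-motor neurons for il1a+tnfa, c1q+c5, il1b+il6 and tgfb2. In ES-astrocytes they numbered 93 of 10444, 106 of 10865, 119 of 10240 and 136 of 10794 in the same order. DESeq2 called 0, 0, 1 and 11 genes in the ES-motor neuron comparisons and 11, 6, 12 and 19 in the ES-astrocyte comparisons, and limma-voom called 0 in each. Of 509 tests of the kept genes of the pathway and marker lists in the 8 comparisons, edgeR called 0, with 13 at an unadjusted p under 0.05.

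The smallest unadjusted p among the 42 was that of Lifr in ES-motor neurons with il1b+il6. Lifr passed the low-count filter there through its stimulated libraries, and under the other stimuli it was below the filter in ES-motor neurons. This p is therefore no support for a difference. Its levels in A to D were 10.7, 11.3, 29.5 and 13.4 CPM with the stimulus and 2.72, 1.53, 0 and 0 CPM in control. All 4 stimulated libraries lay above all 4 controls, but B and D were shallow and held 1 and 2 Lifr counts. Control C was shallow too, and its 0 allows up to 11.5 CPM, above stimulated A and B, so a separation of the groups is not shown. The log2 fold change was 3.81 (SE 1.22, adjusted p of edgeR 1.00). Lifr in ES-motor neurons with tgfb2 was at 0, 21.8, 0 and 22.3 CPM and with c1q+c5 at 0, 15.9, 0 and 11.7 CPM, so the higher libraries there came with others at 0.

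Gfra1 in ES-motor neurons with tgfb2 was at 16.6, 31.3, 26.0 and 30.0 CPM, against 63.4, 36.9, 88.5 and 58.3 CPM in control. All 4 lay below the lowest control library, but A was shallow and held 4 Gfra1 counts. The log2 fold change was -1.22 (SE 0.505, adjusted p of edgeR 0.999). Under the other stimuli Gfra1 in ES-motor neurons overlapped control, at 41.5, 51.8, 43.6 and 34.7 CPM in il1a+tnfa, at 67.6, 68.6, 32.8 and 116.5 CPM in c1q+c5, and at 61.0, 11.3, 109.5 and 93.7 CPM in il1b+il6. The levels of c1q+c5 A and il1b+il6 B rest on 1 count each.

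In ES-astrocytes Gfra1 was lowest in control, at 31.0, 0.634, 38.0 and 8.74 CPM in A to D, a mean of 19.6 with a standard deviation of 17.8 (n = 4). With il1b+il6 it was at 107, 90.1, 112 and 81.5 CPM, a mean of 97.8 with a standard deviation of 14.4 (n = 4). The il1b+il6 libraries lay above all controls, and the log2 fold change was 2.33 (SE 0.923, adjusted p of edgeR 1.00), 2.95 without control C and 4.19 in limma-voom with quality weights (adjusted p 0.305 to 1.00 over the alternatives). With c1q+c5 it was at 40.5, 44.1, 38.1 and 62.1 CPM, also above all controls, though the lowest exceeded the highest control by little. With il1a+tnfa it was at 60.3, 15.9, 52.5 and 79.3 CPM and with tgfb2 at 26.2, 26.0, 72.0 and 67.2 CPM, and both groups overlapped control. The summed interneuron markers of ES-astrocytes with il1b+il6 also lay above all controls, the lowest library by little. Their part in the Gfra1 levels was not tested.

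Bdnf in ES-astrocytes was at 0.214, 0.724, 2.19 and 6.17 CPM in control and at 11.1, 17.4, 16.3 and 12.9 CPM with tgfb2. All 4 stimulated libraries lay above all controls, at a log2 fold change of 2.67 (SE 1.35, adjusted p of edgeR 1.00), which was 3.85 (adjusted p of edgeR 1.00) without control D. With il1b+il6 Bdnf was at 12.95, 4.44, 13.5 and 7.86 CPM, and 1 library fell within the control range. With c1q+c5 it was at 1.35, 7.36, 13.6 and 0 CPM, and with il1a+tnfa, where it was below the filter, at 0, 4.30, 6.44 and 0.502 CPM.

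The lowest log2 fold change of the 42 tests was -4.47 for Ntrk2 in ES-astrocytes with il1b+il6 (SE 2.41, adjusted p of edgeR 1.00), where 3 of 4 libraries and 1 of 4 controls were at 0. Its size rested on single libraries. It was -3.17 without control C and -3.49 in limma-voom with quality weights, and without il1b+il6 B the stimulated group held no count and the fitted -10.2 was no measured size. Groups without overlap were found in 5 of the 42 tests, namely the Lifr and tgfb2 Gfra1 pairs in ES-motor neurons and the c1q+c5 Gfra1, il1b+il6 Gfra1 and tgfb2 Bdnf pairs in ES-astrocytes. Over all genes tested in the 8 comparisons 2.26% of tests had no overlap, and chance gives 2.86%. The shares for il1a+tnfa, c1q+c5, il1b+il6 and tgfb2 were 3.62%, 3.24%, 1.81% and 2.57% in ES-motor neurons and 1.88%, 1.91%, 1.84% and 2.29% in ES-astrocytes. The 5 share control libraries and 3 of them are of Gfra1, so they are not 5 separate observations, and none was called. The Lifr pair passed the filter through its stimulated libraries, and its separation is not shown, as given above.

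The other genes tested against control were not called either. Ret, tested in ES-motor neurons only, had log2 fold changes of -0.89 to 1.37 over the 4 stimuli. Ngfr ran from -0.69 to 0.71 in ES-motor neurons and from -0.79 to 0.80 in ES-astrocytes. Ntrk3 was at 0.81 in ES-motor neurons with il1b+il6, its only test there, and at 0.92 to 2.30 in ES-astrocytes. Cntfr was at 0.35 and 1.88 in ES-motor neurons with c1q+c5 and il1b+il6, and at -2.12 to -1.70 in ES-astrocytes under the 3 stimuli in which it passed the filter. Single libraries carried these Cntfr values, as ES-astrocyte control A held 906 of 936 control counts and ES-motor neuron il1b+il6 A 1358 of 1363. Medians in ES-astrocytes went the other way, with 2.42 CPM in control against 6.73, 5.91 and 5.27 CPM in il1a+tnfa, c1q+c5 and tgfb2. In ES-motor neurons with il1b+il6 the median also went the other way, at 3.74 CPM against 7.39 CPM in control. In ES-motor neurons with c1q+c5 it was 10.2 CPM, in the direction of the fold change. Lifr in ES-astrocytes ran from -0.87 to 0.83, and Gfra2 was below the filter throughout.

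Whether the response to the treatments differed between the cell types was tested with 1 F test of the 4 interaction terms over all 40 libraries. Of 13227 genes edgeR called 0 (0%) at an adjusted p of at most 0.05, with 808 at an unadjusted p under 0.05, and DESeq2 called 1 and limma-voom 0. Of the 8 genes kept 0 were called by any of the 3 tools, and 1, Ret, had an unadjusted p under 0.05, of 0.0106 (adjusted p of edgeR 0.700). Gfra1 followed with an adjusted p of 0.863 in edgeR. Cntfr had an adjusted p of 0.953 and Ntrk2, Ntrk3, Ngfr, Lifr and Bdnf of 1, and Gfra2 was below the filter. A difference in response of the 8 genes tested between the cell types was therefore not detected at this depth, and none is shown to be absent.

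The genes most like each called gene were taken from 31 libraries that were not shallow, as the Pearson correlation of log2 CPM over 13227 genes. For Ret they were Ina (0.779), Nefl (0.755) and March4 (0.744). For Ntrk2 they were Tube1 (0.727), Wscd1 (0.685) and Ap5z1 (0.662). The libraries are of both cell types, so these correlations include the difference between them, and no p is given.

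Other genes of the pathways came from 10 lists, each described for the comparison of cell types over all treatments. The 4 GDNF family ligands all stayed below the filter, and Gdnf itself had 104 counts, all from 2 ES-astrocyte libraries. Of 8 GDNF family receptors 5 were kept and 2 called higher, with a median log2 fold change of 0.24. Beside Ret this was Ncam1, an alternative GDNF receptor, at 1.87 (SE 0.1702, adjusted p of edgeR 2.16e-12), with 743 to 3538 CPM in ES-motor neurons against 238 to 941 CPM in ES-astrocytes.

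Of the 4 neurotrophins 2 were kept, with a median of 1.12. Ntf3, the gene of the TrkC ligand, was called higher in ES-motor neurons at 3.36 (SE 1.04, adjusted p of edgeR 0.0161), and was counted in 16 ES-motor neuron and 5 ES-astrocyte libraries. Of 8 neurotrophin receptors and sortilins 7 were kept and 2 called lower, Ntrk2 and Sorcs1, a sortilin family gene, at -4.06 (SE 1.06, adjusted p of edgeR 0.00379), with a median of -0.37. Of 10 genes listed with p75NTR 9 were kept, with a median of 0.13. Tnfrsf19 (3.84) and Kidins220 (1.19) were called higher and Adam17 (-1.01) lower. Tnfrsf19 was counted in 9 ES-motor neuron and 4 ES-astrocyte libraries, with a median of 0 CPM in each cell type.

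Of 10 ligands of the IL-6 family only Cntf was kept, at -0.03 and not called. Of 7 receptors of that family 3 were kept, Cntfr, Lifr and Il6st, and 0 were called by edgeR, with 0 at an unadjusted p under 0.05 and a median of 0.40. Il6st, which encodes gp130, had medians of 21.7 CPM (ES-motor neurons) and 16.7 CPM (ES-astrocytes). Of 20 adaptors of receptor tyrosine kinases 18 were kept, with a median of -0.36, and 1 was called, Dok6, which binds RET, at 4.02 (SE 1.26, adjusted p of edgeR 0.0171).

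Of 10 genes of the JAK and STAT3 branch 9 were kept and 1 called, Stat5a, whose 196 counts were all from 7 ES-astrocyte libraries. It was at least 36.2-fold lower in the other cells over the pooled counts, taking 3 counts over all ES-motor neuron libraries. The median of the branch was -0.61 with the fitted value and with that bound. Of 18 feedback and early response genes of ERK signalling 12 were kept, 7 called lower and 1 higher, with a median of -2.18 beside -0.21 over all genes tested. The largest were Egr1 (-5.18), Etv5 (-5.08), Spry4 (-3.39), Fos (-3.16), Dusp6 (-2.74) and Etv1 (-2.61). The gene called higher was Spry2 at 1.11, named after its values were seen.

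Promoter windows of 250 bases upstream of a start were read from RefSeq (GRCm38.p6) for 6 of the 9 genes, 18 windows in all, 7 of them of Bdnf and 6 of Cntfr. Windows of Ret, Gfra2 and Ntrk3 were not used here. Motifs were searched on both strands and counted over 32851 windows of the same length. The letters TGACG, the core of a cAMP response element, were in 1 window, of Bdnf, and in 17.8% of all windows. GGGCGG was in 7 member windows, of Bdnf, Cntfr, Lifr and Ngfr, and in 32.7% of all, AGGTCA in 2, of Bdnf and Lifr, and in 14.02% of all, and TAATTA in 0, against 4.84% of all. Some Cntfr windows overlap and share the same stretch with GGGCGG, so the 7 windows are not all separate.

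Shown are the Bdnf window with the TGACG match (plus strand, chr2:109692186-109692435) and the single windows of Gfra1 (minus strand, chr19:58455399-58455648) and Ntrk2 (plus strand, chr13:58806319-58806568). They belong to genes with groups that did not overlap or with a call, and are written 5′ to 3′ on the strand of the gene. Capitals mark the match, read as CGTCA on this strand, and the other 2 windows hold none of the 4 motifs. Counts per gene do not tell apart the several starts of Bdnf, and a match describes the letters only.
Bdnf: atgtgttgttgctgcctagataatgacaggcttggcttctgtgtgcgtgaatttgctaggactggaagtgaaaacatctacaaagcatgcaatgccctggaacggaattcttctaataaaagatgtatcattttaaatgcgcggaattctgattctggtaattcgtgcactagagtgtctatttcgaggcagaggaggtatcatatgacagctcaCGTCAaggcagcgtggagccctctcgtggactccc
Gfra1: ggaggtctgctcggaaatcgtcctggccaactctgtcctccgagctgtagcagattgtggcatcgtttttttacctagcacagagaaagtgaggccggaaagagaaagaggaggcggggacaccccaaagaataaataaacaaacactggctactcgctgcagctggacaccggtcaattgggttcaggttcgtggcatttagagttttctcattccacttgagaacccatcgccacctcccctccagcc
Ntrk2: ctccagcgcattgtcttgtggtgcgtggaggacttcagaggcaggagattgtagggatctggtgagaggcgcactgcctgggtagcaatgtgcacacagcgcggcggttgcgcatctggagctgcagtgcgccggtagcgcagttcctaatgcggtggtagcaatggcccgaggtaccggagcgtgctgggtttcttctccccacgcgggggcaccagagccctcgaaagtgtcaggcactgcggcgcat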

How the data were processed

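The authors deposited raw counts of reads per Ensembl gene, 1 column for each of the 40 libraries, which the sequencing facility made after mapping with STAR. Build, annotation, counting tool and strand setting are not stated, and the submitters name DESeq2 for their own tests. Symbols, coordinates and exon lengths came from GENCODE M21 (GRCm38), which named 55227 of 55487 genes, and the 260 without a name held 0.117% of counts. The plate index of each library, another value of the deposited sample sheet, was used as a label.

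Tests used edgeR 4.0.16 in R 4.3.3 on all genes kept by filterByExpr, with TMM factors, a robust quasi-likelihood fit and Benjamini-Hochberg adjustment. Comparisons within a cell type or within control used their 8 libraries alone. Members were also tested by two-sided permutation, exact for 8 libraries and with 100000 shuffles within treatments for all 40. Alternatives were DESeq2 1.42.0, limma-voom with quality weights (limma 3.58.1), RLE size factors, no filter, no shallow libraries, a replicate block, all libraries in 1 fit, no fold threshold, and each library left out; each plate index alone was added after seeing the data. The fit was tested on simulated data in which all genes had the same dispersion, so this does not show its power for the 9 members. All 9 members are named for the cell types, the stimuli and the interaction. Of each of the 21 lists the counts, the median and, by absolute log2 fold change, at most the 6 leading called genes are given for the cell types, and for each member called there the 3 genes most correlated with it. Of the interneuron list 1 gene and the values over the list are not reported here. Members and lists were chosen with earlier results of these data known. No 2 columns were identical.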

Additional observations from a re-analysis of the deposited data

Results flagged for a closer look

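Single libraries far from the other 3 of their group were looked for in 75 groups of 4, those of a gene, cell type and treatment in which at least 1 library held more than 3 counts, and in the total counts of the 10 groups. A library was listed when its gap to the nearest other one, as a share of the range of the group, exceeded Dixon's 95% limit for 4 values. For normally distributed values chance gives this in about 1 in 20 groups. The levels here are not on a log scale and are often 0, so that rate does not apply to them. The rule listed 17 values, many of them in groups whose other libraries were at or near 0. No cause was tested.

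Ret stood out at 124.1 CPM in ES-motor neuron il1b+il6 C, at 1.714 CPM in ES-astrocyte control D and at 7.955 CPM in ES-astrocyte tgfb2 D. Ntrk2 stood out at 1.271 CPM in ES-motor neuron il1b+il6 A, at 10.9 CPM in ES-astrocyte il1a+tnfa A and at 3.435 CPM in ES-astrocyte il1b+il6 B. Ngfr was far below the others at 6.69 CPM in ES-motor neuron il1b+il6 D, a shallow library with 1 count of it.

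Cntfr stood out in 4 groups, at 65.14 CPM in ES-motor neuron il1a+tnfa A, 86.31 CPM in ES-motor neuron il1b+il6 A, 97.08 CPM in ES-astrocyte control A and 5.455 CPM in ES-astrocyte il1b+il6 B. Lifr stood out at 29.53 CPM in ES-motor neuron il1b+il6 C. Bdnf stood out at 13.76 CPM in ES-motor neuron control B and at 6.092 CPM in ES-motor neuron tgfb2 B.

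Total counts stood out in 3 groups. They were 19717324 in ES-motor neuron control B, 12606121 in ES-motor neuron tgfb2 B and 14831839 in ES-astrocyte il1a+tnfa A, and the first 2 are the libraries in which Bdnf stood out.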

How the results depend on the processing

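Between the cell types over all treatments Ret was called under every alternative run, with log2 fold changes of 2.65 to 7.06 (3.80 to 4.61 with each library left out) and an adjusted p of 7.41e-09 to 0.0226. The number of members called was 2 with all libraries and 1, Ret, in DESeq2, without the shallow libraries, and within plate index 1 or plate index 2, the last pair chosen after seeing the data. It was 1 to 2 with each library left out, since Ntrk2 was not called without ES-astrocyte il1b+il6 B or ES-astrocyte tgfb2 C. It was 2 in limma-voom, there Ret and Ntrk3, and 2 with the replicate block (Ret, Ntrk2), RLE size factors, no filter or no fold threshold. Signs changed for Gfra1 within plate index 2 (-0.21), Bdnf within plate index 1 (0.25), and Cntfr with the replicate block (-0.16), within plate index 1 (-0.024) and between -0.33 and 1.40 with each library left out. The cause was not tested, beyond the fewer libraries of some fits.

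In the control comparison, the 8 stimulus comparisons and the interaction, 0 members were called under each alternative run. Fitting without shallow libraries could not be done for ES-motor neuron il1a+tnfa, whose 4 libraries are all shallow, or for the interaction.

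Genes called between the cell types numbered 1972, against 3108 in limma-voom (2220 higher, median log2 fold change of all genes 0.38), 742 within plate index 1, 1249 within plate index 2 and 2014 to 2223 with each library left out. In control they numbered 228, against 576 in DESeq2, 451 in limma-voom, 433 with all libraries in 1 fit, 81 without shallow libraries, 41 with the replicate block, and 72 (without ES-motor neuron B) to 401 (without ES-astrocyte A) with each of the 8 libraries left out. In ES-motor neurons with tgfb2 they numbered 1, against 11 in DESeq2, 5 without a filter, 4 with the replicate block, 0 in limma-voom, without shallow libraries or without control C, tgfb2 A or tgfb2 D, and 2 without control A, B or D. Leaving out ES-motor neuron control D gave 2 genes for c1q+c5 and 1 for the interaction, as did ES-astrocyte il1a+tnfa B, il1b+il6 B or D, or ES-motor neuron il1a+tnfa C for the interaction.

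Replicate letters were not treated as paired. With the replicate block Ntrk2 in ES-astrocytes with il1b+il6 was at -6.90, Gfra1 there at 3.10, Bdnf in ES-astrocytes with tgfb2 at 3.57, and Gfra1 and Lifr in control at 2.53 and -2.70. Correlations between the ES-motor neuron and ES-astrocyte libraries of the same treatment and letter ran from -0.144 to 0.0981, those between treatments of 1 cell type within a letter ran from -0.224 to 0.424 with medians of -0.0153 (A) to 0.0317 (C), and 7 of 20 ES-motor neuron libraries correlated best with the ES-astrocyte library of their own letter.

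Depth limits the ES-motor neuron results, as 9 of 20 libraries are shallow, and the genes at a few CPM are at 0 or 1 count in them. With 4 libraries a group and adjusted p near 1, the stimulus comparisons do not show that receptor levels were unchanged.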
